A study of Mus musculus with 5 samples.

Results

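Vascular smooth muscle cells, the contractile cells in the walls of arteries and arterioles, were examined in hearts of mice used as a model of myocarditis under immune checkpoint inhibition. They were picked by a rule on raw counts of unique molecular identifiers (UMIs, each standing for 1 captured RNA molecule). A barcode had at most 10% of its UMIs on mitochondrial genes, at least 2 Myh11 UMIs and at least 5 over Acta2 and Tagln. It had at most 1 UMI over the pericyte genes Kcnj8, Abcc9 and Vtn, at most 1 over the endothelial genes Pecam1 and Cdh5, and none of the leukocyte gene Ptprc. The rule kept 75 of the 38337 barcodes within the mitochondrial limit, out of 47319 deposited. Control replicate 1 gave 21 and control replicate 2 gave 23, and the disease replicates 3, 4 and 5 gave 7, 13 and 11.

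Single cells from digested whole hearts were sequenced in 5 libraries with the 5-prime chemistry of 10x Genomics after sorting for DRAQ5-positive, DAPI-negative cells, which have a nucleus and an intact membrane. Controls carried both copies of Ctla4 (Ctla4+/+Pdcd1-/-, 4 mice) and disease mice carried 1 (Ctla4+/-Pdcd1-/-, 10 mice), so that all groups lacked Pdcd1, another inhibitory receptor of T cells. Ages are not given in the sources used here, hearts were pooled before sorting, and libraries rather than mice are the replicates. Whether the libraries of a group came from separate mice is not stated, so p-values measure the spread between libraries, which may be technical. The study's design text and protocol name only Pdcd1-/- and DRAQ5. The labels of single libraries name Pdcd2-/- for control replicate 2 and disease replicate 4, Pdcd3-/- for disease replicate 5, and DRAQ6 to DRAQ9 for all but the first library. The groups were taken from the Ctla4 genotype, on which both sources agree. Neither Ctla4 nor Pdcd1 had a UMI in the 75 cells, which allows a share of cells with a UMI of up to 4.0%, so these cells do not check the genotypes.

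Smooth muscle cells contract when calcium entering or released in the cell activates myosin light chain kinase, and relax when myosin phosphatase, driven by nitric oxide and cyclic GMP, removes the phosphate. Their contractile genes are switched on by serum response factor with its partner myocardin, through a short promoter element called the CArG box. Pericytes, which wrap capillaries, belong to the same mural lineage and share many of its genes at lower contractile content. Vascular smooth muscle cells can lower their contractile genes and raise matrix and inflammatory genes when a vessel is injured.

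The cells carried a median of 4382 UMIs and 1731 genes, and summed to 140779 and 108018 UMIs in control hearts, against 37635, 41270 and 59399 in disease hearts. Over the whole libraries, 24991704 to 55053988 UMIs were deposited. Disease replicate 3 had the fewest smooth muscle cells, 7, and UMIs in them, had the highest median mitochondrial share among these cells (7.97% against 5.50 to 5.96% in the others), and fell below the 10 cells that had been set as a minimum. It was retained because the tests were laid out for all 5 libraries, and counts are also given without it. Barcodes shared between libraries numbered 1572 of 38337. No member shared its barcode with another member, and 3 of the 75 had a barcode that also occurred elsewhere. None of the 75 was called a doublet by Scrublet, which called 3.23% of all barcodes.

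Most barcodes with contractile RNA lay outside the rule. At least 2 Myh11 UMIs were found in 331 barcodes, and 278 of these also had 5 or more over Acta2 and Tagln. Of the 278, 40 were left out by the pericyte genes alone, 64 by the endothelial genes alone, 5 by Ptprc alone and 94 by more than 1 of these limits. Near the thresholds, 4 members had exactly 2 Myh11 UMIs and 11 other barcodes failed only for having 1. These 4 had a median of 29.0 UMIs over Acta2 and Tagln and the 11 a median of 9.0. Members with 5 to 9 Acta2 and Tagln UMIs numbered 5, and 1 barcode failed only for having 3 or 4.

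The genes of the rule are given as a description. Levels are in CPM, the UMIs of a gene scaled to the same total of UMIs over the cells of a class in each library, with that total set to 1e6. Myh11, the smooth muscle myosin heavy chain, was at 3381 and 3268 CPM in control hearts, against 2896, 3368 and 1616 CPM in disease hearts. Acta2, smooth muscle alpha-actin, was at 16224 and 14312 CPM in controls and 13073, 16138 and 8317 CPM in disease, and Tagln, the actin-binding protein transgelin, at 13241 and 9406 CPM and 10868, 14005 and 4781 CPM in the same order. Disease replicate 5 had the lowest level of all 3 genes. The other 4 libraries lay close together for Myh11 and Acta2, and ran from 9406 to 14005 CPM for Tagln.

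Smooth muscle markers that the rule did not use were present. Of the 75 cells, 72 had a UMI of Myl9 (regulatory myosin light chain), 67 of Mylk (myosin light chain kinase), 54 of Des (desmin), 51 of Lmod1 (an actin nucleator), 37 of Synpo2, 34 of Smtn (smoothelin), 28 of Myocd (myocardin) and 22 of Cnn1 (calponin). After each cell was thinned to 1500 UMIs, Myl9 was seen in 91.5% of 71 smooth muscle cells and in 24.0% of 146 cells that met a pericyte rule (at least 3 UMIs over Kcnj8, Abcc9 and Vtn, no Myh11, at most 4 over Acta2 and Tagln, with the same endothelial and Ptprc limits). The thinned shares for Cnn1 were 18.3% and 0%, where a share of up to 2.56% remains possible (upper 95% Wilson bound). Median depths without thinning were 4382 and 3390.5 UMIs.

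Markers of other cells were present to different extents. Pericyte markers outside the rule summed to 6151 and 12748 CPM in control hearts, against 13897, 11752 and 11650 CPM in disease hearts, beside 4595 to 13139 CPM in cells of the pericyte rule described above. In cells with at most 4 UMIs over the fibroblast genes Dcn, Col1a1 and Pdgfra, the ranges were 7995 to 14410.5 CPM in smooth muscle cells and 22308 to 28559 CPM in the pericyte rule, without overlap. Both rules were set on Kcnj8, Abcc9 and Vtn, so markers that travel with these had to differ. Leukocyte markers summed to 120 to 654 CPM per library and cardiomyocyte markers to 118 to 370 CPM, with 7 of 17 cardiomyocyte genes at 0 in every library. Endothelial markers outside the rule summed to 1726 and 2009 CPM in control hearts, against 2019, 4119 and 2896 CPM in disease hearts, so all 3 disease libraries were above both controls, replicate 3 by little, and below both (1707 CPM against 2009 and 2222 CPM) in cells with at most 4 UMIs over the fibroblast genes Dcn, Col1a1 and Pdgfra. Fibroblast markers summed to 6613 and 1435 CPM in control hearts, against 7334, 1381 and 19950 CPM in disease hearts, with none of the 16 at 0. They were highest in disease replicate 5, above its sum of 19007 CPM over the contractile genes outside the rule, and did not separate the groups. At least 5 UMIs over the fibroblast genes Dcn, Col1a1 and Pdgfra were found in 7 of the 75 cells, 3 in control replicate 1 and 2 each in disease replicates 3 and 5.

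The contractile apparatus outside the rule was described by 26 listed genes, and every one had a UMI. Their summed level was 40809 and 34411 CPM in control hearts, against 34197, 38551 and 19007 CPM in disease hearts. Fibroblasts, picked by at least 5 UMIs over Dcn, Col1a1 and Pdgfra and no Myh11 (9810 cells), were at 3039 to 3520 CPM, and the 162 cells that met the pericyte rule at 3878 to 4651 CPM, or 5394 to 8702 CPM in those with at most 4 UMIs over Dcn, Col1a1 and Pdgfra. Smooth muscle cells of every library were thus above both classes for the sum. The classes were cut by expression. Genes that travel with Myh11 and Acta2, with Kcnj8, Abcc9 and Vtn, or with Dcn, Col1a1 and Pdgfra therefore had to differ between classes picked on them. The tests below say how repeatable each difference was over the 5 libraries, and the rule genes are left out of them.

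The pericyte rule also admitted cells with fibroblast RNA. At least 5 UMIs over Dcn, Col1a1 and Pdgfra were found in 77 of its 162 cells, and the fibroblast markers summed to 43584 CPM in them when pooled, against 70402 CPM in fibroblasts and 6727 CPM in smooth muscle cells. Differences from the pericyte rule are therefore given also with both classes limited to cells with at most 4 such UMIs, an alternative chosen after the data were seen. In that fit 39.0% of the 538 genes tested were called, 17.1% higher and 21.9% lower. Vcl, Pln, Mrvi1, Colec11, Steap4, Col4a1 and Col4a2 did not pass its filter on low counts and were not tested. The limit left 85 cells of the pericyte rule, of which 2 (4022 UMIs) were in disease replicate 3.

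Against the cells that met the pericyte rule, 17 of the 19 contractile genes tested were higher in smooth muscle cells and none was lower, where 16.4% of the 1169 genes tested were higher and 20.2% lower (edgeR quasi-likelihood test with library as a block, adjusted p under 0.05). Their median log2 difference was 3.05, beside -0.02 over all genes tested. With both classes limited, 14 of 15 were higher and none lower, beside the 17.1% and 21.9% over all genes of that fit, with a median of 2.33 beside 0.00. Against fibroblasts, 24 of 25 were higher, beside 6.97% of the 10968 genes tested (20.4% called in either direction), with a median of 3.36 against -0.42.

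Among the myosin genes, Myl9 (ENSMUSG00000067818) was at 6357 and 5462 CPM in control hearts, against 4676, 6494 and 2273 CPM in disease hearts. Pericyte-rule cells had between 129 and 223 CPM of it, and between 0 and 397 CPM with the limit on fibroblast UMIs. Its log2 difference from the cells of the pericyte rule was 4.60 (SE 0.30, adjusted p = 2.15e-05), or 3.86 with both classes limited, and from fibroblasts 6.51 (SE 0.26). Mylk, the kinase that starts contraction, was at 1449 and 1555 CPM in controls and 1461, 1333 and 556 CPM in disease, with a log2 difference from the pericyte rule of 3.69 (SE 0.26, adjusted p = 4.07e-05) that became 1.87 with both classes limited. Myl6, the essential light chain found in many cells, was at 6755 and 5295 CPM in controls and 6483, 6833 and 3216 CPM in disease, a log2 difference of 2.31 (SE 0.22, adjusted p = 0.000153), and 2.00 with both classes limited. For all 3 genes disease replicate 5 was lowest, and the other disease libraries fell within or near the control range.

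Tpm1 (tropomyosin 1) was at 4226 and 3962 CPM in control hearts, against 3853, 4434 and 3014 CPM in disease hearts, a log2 difference from the pericyte rule of 3.84 (SE 0.24, adjusted p = 2.15e-05), and 2.77 with both classes limited. Tpm2 was at 5136 and 3620 CPM in controls and 4172, 3828 and 1717 CPM in disease, a log2 difference of 3.79 (SE 0.29, adjusted p = 6.21e-05), and 2.72 with both classes limited. Cald1 (caldesmon) differed less, by 1.44 (SE 0.17, adjusted p = 0.00043), and by 0.39 (adjusted p = 0.158) with both classes limited, where it did not pass. Des, an intermediate filament protein that mural cells share with heart muscle, was at 803 and 787 CPM in control hearts, against 452, 315 and 135 CPM in disease hearts. Its log2 difference was 2.36 (SE 0.27, adjusted p = 0.00036), and 0.83 (adjusted p = 0.026) with both classes limited. The 2 groups of libraries did not overlap for it, as for 30.7% of the 979 genes tested between genotypes. Vcl (vinculin), which couples actin to adhesion sites, did not pass against pericytes (log2 difference 0.44, SE 0.24, adjusted p = 0.185).

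Mustn1, a small nuclear protein of muscle, gave one of the largest differences from the pericyte rule, 5.63 (SE 0.43, adjusted p = 6.21e-05), or 5.09 with both classes limited, with 2891 and 2916 CPM in control hearts, against 2949, 3586 and 1599 CPM in disease hearts. Cnn1, Actg2 and Lmod1 were too sparse in pericytes to test there. They were uneven among smooth muscle cells. Cnn1 was at 725 and 102 CPM in control hearts, against 79.7, 485 and 0 CPM in disease hearts, from 22 cells, and Actg2, the enteric form of smooth muscle actin, had 50 UMIs in 9 cells.

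Promoter sequence was set beside this group because its members moved together. RefSeq windows from 250 bases before to 50 bases after a transcription start (build GRCm38.p6, the patch series of mm10, which the submitters' notes list without a role) were found for 24 of the 29 contractile genes, and searched on both strands for the CArG box. It occurred in 4 of the 24 (16.7%), against 1.81% of 27025 genes with a window. The 250 bases before the start of each are shown 5′ to 3′ on the gene's strand, with the box in capitals. They lie at chr2:156775214-156775463 on the plus strand for Myl9, chr10:128493010-128493259 on the minus strand for Myl6, chr14:20929148-20929397 on the plus strand for Vcl and chr14:34588682-34588931 on the minus strand for Ldb3.
Myl9 promoter: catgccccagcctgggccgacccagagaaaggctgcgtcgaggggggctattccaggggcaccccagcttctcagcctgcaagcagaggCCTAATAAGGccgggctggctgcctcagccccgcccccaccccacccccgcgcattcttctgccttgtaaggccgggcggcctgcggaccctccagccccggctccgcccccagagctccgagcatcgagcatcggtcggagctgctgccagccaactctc
Myl6 promoter: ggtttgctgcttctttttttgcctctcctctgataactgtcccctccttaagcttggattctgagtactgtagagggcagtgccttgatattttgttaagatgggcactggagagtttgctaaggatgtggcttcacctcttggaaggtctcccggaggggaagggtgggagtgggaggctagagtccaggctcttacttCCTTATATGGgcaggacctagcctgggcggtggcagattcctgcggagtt
Vcl promoter: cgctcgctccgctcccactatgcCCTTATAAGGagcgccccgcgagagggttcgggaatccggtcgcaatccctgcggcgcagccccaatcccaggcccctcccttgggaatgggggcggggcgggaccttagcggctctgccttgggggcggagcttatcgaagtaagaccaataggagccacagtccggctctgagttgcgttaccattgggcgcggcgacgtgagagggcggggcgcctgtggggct
Ldb3 promoter: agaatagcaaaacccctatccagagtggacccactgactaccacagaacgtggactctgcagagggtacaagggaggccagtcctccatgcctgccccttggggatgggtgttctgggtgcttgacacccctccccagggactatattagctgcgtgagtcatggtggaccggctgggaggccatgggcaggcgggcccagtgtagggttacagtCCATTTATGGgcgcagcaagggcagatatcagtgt
The box began 161 bases before the start in Myl9, 50 in Myl6, 227 in Vcl and 35 in Ldb3. From another annotated start of Ldb3 it began 109 bases before. Of these genes, Myl9 and Myl6 were higher than in the cells of the pericyte rule, Vcl did not pass, and Ldb3, a partner of alpha-actinin in muscle with 25 UMIs, was higher than in fibroblasts and was too sparse to test against pericytes. Over all genes higher than in the cells of the pericyte rule 1.45% of 138 windows held a box, beside 4.49% of 178 for lower genes and 2.71% of 591 for genes not called. A match describes the letters only, and a window without one says nothing of the factor.

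**Figure D1:**
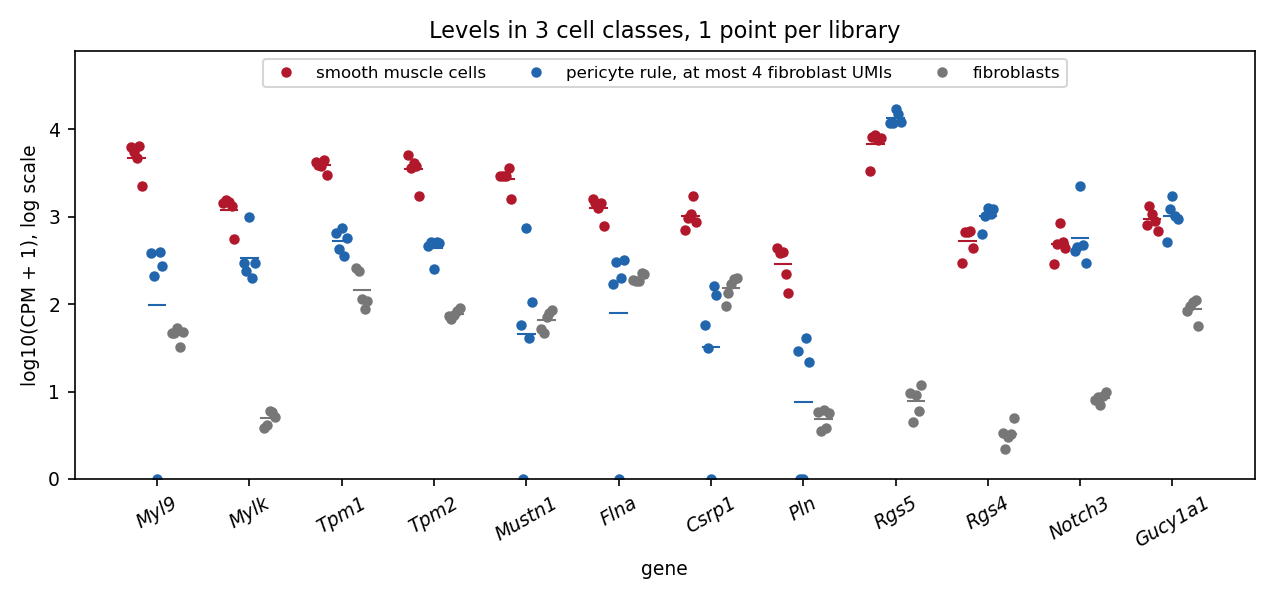
Level of 12 genes as log10(CPM + 1) in smooth muscle cells (red), cells of the pericyte rule with at most 4 fibroblast UMIs (blue) and fibroblasts (grey), with 1 point per library and a bar at the mean. By the mean, contractile genes from Myl9 to Pln are highest in smooth muscle cells and Rgs5 and Rgs4 in the pericyte rule, and blue points at 0 include the library with 2 such cells.

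Among genes that handle calcium, 4 of 7 tested were higher than in the cells of the pericyte rule and none lower, and 14 of 26 were higher and 3 lower than in fibroblasts. Over all genes 16.4% were higher in the first fit, and 6.97% were higher and 13.4% lower in the second, so the 3 lower genes were near the background. With both classes limited, only 3 could be tested and 1, Atp2a2, was higher. Pln (phospholamban), which restrains the calcium pump of the sarcoplasmic reticulum, was at 433 and 389 CPM in control hearts, against 399, 218 and 135 CPM in disease hearts, a log2 difference from the pericyte rule of 4.41 (SE 0.48, adjusted p = 0.000305). Casq2, which stores calcium in the same compartment, was at 249 and 481 CPM in controls and 452, 509 and 387 CPM in disease. It was 1.95 (SE 0.34, adjusted p = 0.00235) above the pericyte rule but 0.21 (adjusted p = 0.569) with both classes limited. Kcnmb1, the beta subunit of the calcium-activated potassium channel, had 52 UMIs in 31 cells at 213 and 120.3 CPM in controls and 53.1, 145 and 16.8 CPM in disease. Pooled, Kcnmb1 was at 29.9 CPM in the pericyte rule and 0.0663 CPM in fibroblasts, and with both classes limited at 131 CPM in smooth muscle cells and 92.6 CPM in the pericyte rule. Pln and Casq2 are also expressed by cardiomyocytes, whose own markers summed to 118 to 370 CPM per library. Whether cardiomyocyte RNA bears on the levels of these genes was not tested.

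Receptors for vasoactive signals were sparse: 23 of 35 had a UMI and 6 were seen in 10 or more cells. Against the cells of the pericyte rule 2 could be tested and neither passed. Against fibroblasts 4 of 22 were higher and 9 lower, beside 6.97% and 13.4% of all genes of that fit. The 4 were Ramp1 (a partner of the calcitonin receptor-like receptor), S1pr3, Npy1r (a neuropeptide Y receptor) and Ednra (the endothelin A receptor). S1pr3, a sphingosine-1-phosphate receptor, was at 348 and 454 CPM in control hearts, against 239, 606 and 219 CPM in disease hearts. Its log2 difference from the pericyte rule was 0.32 (SE 0.24, adjusted p = 0.325), and -1.16 with both classes limited, where it passed as lower. Ednra was at 63.9 and 139 CPM in controls and 79.7, 48.5 and 84.2 CPM in disease, from 26 cells.

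Relaxation through nitric oxide and cyclic GMP was represented by 18 of 22 genes with a UMI. Gucy1a1 and Gucy1b1, which together form the guanylate cyclase that senses nitric oxide, were at 796 and 1342 CPM and 703 and 917 CPM in control hearts, against 1063, 897 and 690.2 CPM and 1010, 485 and 606 CPM in disease hearts. Against fibroblasts they were higher by 3.18 (SE 0.25) and 3.56 (SE 0.26) on the log2 scale. Against the pericyte rule they were higher by 1.25 (SE 0.20, adjusted p = 0.00159) and 0.99 (SE 0.24, adjusted p = 0.0108), but these differences changed sign to -0.23 and -0.56 with both classes limited (adjusted p = 0.424 and 0.0515). Mrvi1, a substrate of cyclic GMP kinase on calcium stores, was at 206 and 426 CPM in controls and 186, 315 and 253 CPM in disease. It was 1.78 (SE 0.30, adjusted p = 0.00198) above the pericyte rule.

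Genes that mural cells share were found in both classes. Rgs5, a regulator of G protein signalling best known from pericytes, was at 3353 and 8175 CPM in control hearts, against 8582, 7560 and 7879 CPM in disease hearts. It was seen in 63 of the 75 cells, and control replicate 1 had the lowest level. Its log2 difference from fibroblasts was 9.67 (SE 0.30). Against the pericyte rule it was 0.73 (SE 0.30, adjusted p = 0.0914), and -1.13 (adjusted p = 0.00163) with both classes limited. Rgs4 followed, at 0.73 (SE 0.31, adjusted p = 0.0973) and -1.04 (adjusted p = 0.000561). Of the listed pericyte markers, 7 of 8 tested with both classes limited were lower in smooth muscle cells, beside 21.9% of all genes of that fit. These were Pdgfrb, Ndufa4l2, Higd1b, Ebf1, Gja4, Rgs4 and Rgs5. Both rules were set on the pericyte genes Kcnj8, Abcc9 and Vtn, so markers that travel with these had to be lower. Without the limit on fibroblast UMIs 3 of 10 were called, 2 lower and 1 higher, below the 36.6% of all genes called in that fit. Colec11, a secreted lectin, was lower by 4.32 (SE 0.47), and Steap4 was lower too, while Notch3 was higher by 1.22 (SE 0.23).

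Notch3, the Notch receptor of arterial smooth muscle, was at 284 and 481 CPM in control hearts, against 850.3, 509 and 438 CPM in disease hearts. It was 5.73 (SE 0.27) above fibroblasts. With both classes limited its difference from the pericyte rule was -0.33 (adjusted p = 0.346), so the difference of 1.22 was not seen without the cells that carried fibroblast RNA. Its ligand Jag1 had 21 UMIs in 19 cells, and the Notch target Nrarp 34 UMIs in 24 cells, both higher than in fibroblasts.

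Most matrix genes tested were lower than in both classes. Fibroblasts were picked on Dcn, Col1a1 and Pdgfra, so genes that travel with these had to be lower than in that class. Of the 162 cells of the pericyte rule, 77 also had at least 5 such UMIs. Of 23 genes of elastic fibres and the vessel wall tested against the pericyte rule, 19 were lower and none higher, and of 31 tested against fibroblasts 24 were lower and none higher, where 20.2% and 13.4% of all genes were lower in the 2 fits. With both classes limited 4 remained testable and 3 (Mgp, Aspn and Bgn) were lower, beside 21.9% of all genes of that fit. Eln (elastin) had 21 UMIs in 15 cells, at 42.6 and 55.5 CPM in control hearts, against 106, 48.5 and 50.5 CPM in disease hearts, beside 212 CPM in the pericyte rule and 220 CPM in fibroblasts when pooled. Limited to at most 4 fibroblast UMIs, the pooled Eln levels were close, at 35.2 CPM in smooth muscle cells and 37.0 CPM in the pericyte rule. Mgp (matrix Gla protein), which restrains calcification of arteries, was at 1719 and 796 CPM in controls and 1860, 1018 and 1987 CPM in disease, a log2 difference from the pericyte rule of -2.82 (SE 0.28, adjusted p = 0.000183), and -2.67 with both classes limited. The 26 listed genes of modulated smooth muscle gave 11 of 13 lower than in the pericyte rule and none higher, beside the same 20.2% over all genes. Only 6 could be tested with both classes limited, with a median of -0.12 beside 0.00. Of these, 2 (Mgp and Dcn) were lower and 1 higher, beside 21.9% and 17.1% of all genes of that fit. Dcn is one of the genes on which the limit was set, so its values were used to pick the cells. The higher gene was Klf4, a transcription factor of that list, by 0.87 (adjusted p = 0.0152). Spp1 (osteopontin), a marker of that state, had no UMI in the 75 cells, which allows a share of cells with a UMI of up to 4.0% and sets no limit on cells that express it.

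The basement membrane list split. Bcam, a laminin receptor, was at 1058 and 1074 CPM in control hearts, against 983, 460.4 and 690.2 CPM in disease hearts, and was 3.55 (SE 0.28, adjusted p = 7.42e-05) above the pericyte rule, and 1.86 with both classes limited. Lamb2 was 1.01 (SE 0.34, adjusted p = 0.0445) above it, but 0.70 (adjusted p = 0.225) with both classes limited. Lama5, a laminin chain, had 39 UMIs in 25 cells at 78.1 to 130 CPM per library, beside 2.99 CPM in the pericyte rule and 0.962 CPM in fibroblasts when pooled. With at most 4 fibroblast UMIs, Lama5 ran from 0 CPM in disease replicate 5 to 159 CPM in disease replicate 3, beside 9.26 CPM in the pericyte rule. Sparc, Col4a1 and Col4a2 were among the 10 of 14 that were lower than in the pericyte rule, beside 20.2% of all genes. Of the list, 4 could be tested with both classes limited, and of these Sparc was lower (log2 difference -2.32) and Bcam higher, with a median of 0.03. Hbegf, a growth factor of the EGF family, was higher by 2.05 (SE 0.27, adjusted p = 0.000666), or 1.20 with both classes limited, and at 675 and 972 CPM in controls and 478, 485 and 354 CPM in disease, where the groups of libraries did not overlap. Of the growth factor list 3 of 11 were higher and 2 lower than in the pericyte rule, beside 16.4% and 20.2% of all genes. With both classes limited 6 could be tested, of which 2 (Hbegf and Igfbp5) were higher and 1 (Pdgfrb) lower, beside 17.1% and 21.9%. Against fibroblasts 9 of 34 were higher and 11 lower, beside 6.97% and 13.4% of all genes. Fgf1, Pdgfa and Ntf3 were among the higher, from 43, 32 and 36 UMIs, and the insulin-like growth factor gene Igf1 and the receptors Tgfbr2 and Fgfr1 among the lower.

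Outside the lists, the 12 largest rises over the pericyte rule included Nrip2, Map3k7cl, Sncg and Pcp4l1 beside the contractile genes, and these 4 were also higher with both classes limited. Sncg (gamma-synuclein) was at 1470 and 954 CPM in control hearts, against 1063, 824 and 758 CPM in disease hearts, 3.84 (SE 0.32, adjusted p = 9.24e-05) above the pericyte rule and 2.27 with both classes limited. Olfr558, an olfactory receptor gene, was at 419 and 592 CPM in controls and 531, 654 and 269 CPM in disease, with a UMI in 56 of the 75 cells. It was 10.66 (SE 0.36) above fibroblasts on the log2 scale, the largest rise there. Pooled, Olfr558 was at 53.8 CPM in the pericyte rule and 0.232 CPM in fibroblasts. It was at 554 CPM in smooth muscle cells and 162 CPM in the pericyte rule with both classes limited, a log2 difference of 1.21 (adjusted p = 0.0218).

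Among themselves the 75 cells spanned a wide range of contractile content. The 26 contractile genes outside the rule took a median of 3.01% of a cell's UMIs, from 0.687 to 7.18%. By library the medians were 3.63 and 2.98% in control hearts, against 3.50, 3.37 and 2.03% in disease hearts. Cells with more Myh11, Acta2 and Tagln had more of the other contractile genes (Spearman rho 0.921 over 75 cells, a description, since both shares have the same denominator). The content was weakly related to depth (rho 0.169), rose with the mitochondrial share of a cell (rho 0.345) and ran against the immediate early genes (rho -0.385), which are induced within minutes by stress, including tissue digestion.

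**Figure D2:**
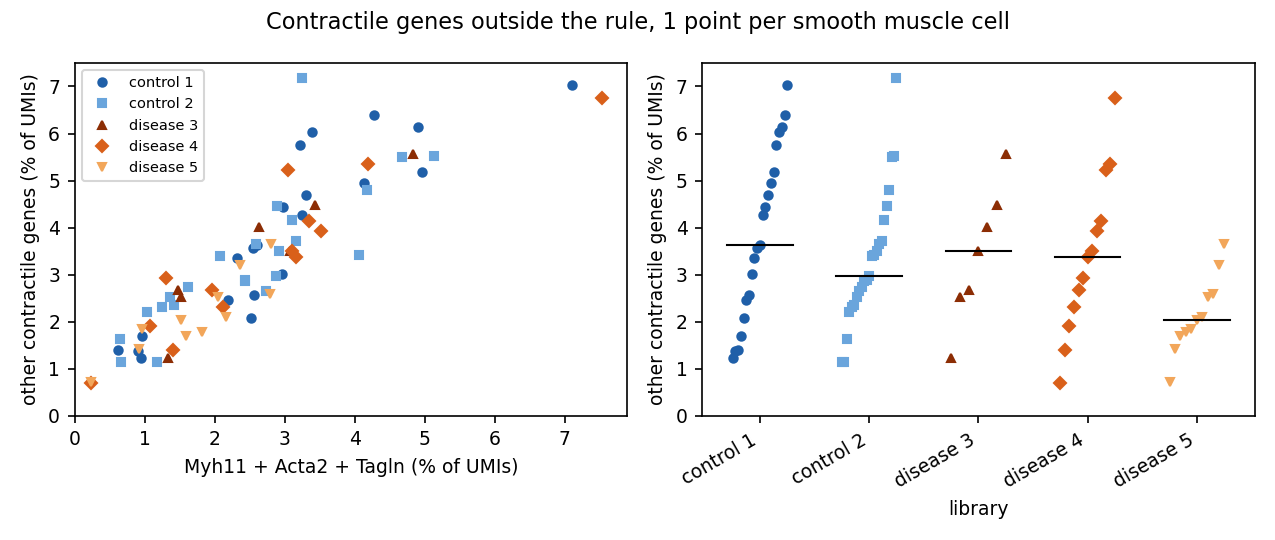
Left, share of UMIs on 26 contractile genes outside the rule against the share on Myh11, Acta2 and Tagln, with 1 point per cell. Right, the former share by library with a line at the median, which is lowest in disease replicate 5 (2.03%).

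Clustering split the cells in 3, as a description with no test. The first sub-group held 38 cells, 14 and 15 from the control libraries and 4, 5 and 0 from the disease libraries, and its leading genes were Pln, Perp and Chchd10. The second held 32 cells, 5 and 8 from the controls and 2, 8 and 9 from the disease libraries, led by Isg15 (an interferon-induced ubiquitin-like protein) and Cdkn1a. Its median contractile share was 2.42% against 4.08% in the first, its immediate early share 3.99% against 2.51% and its mitochondrial share 5.42% against 7.46%. The third held 5 cells from control replicate 1 and disease replicates 3 and 5, with a median of 11312 UMIs. Dcn, Clec3b, Col3a1 and other fibroblast genes led it, so these 5 barcodes carried UMIs of both cell types. Perp, Chchd10, Pfn1, Ramp1, Ppp1r14a and Hmgn1, which lead the first sub-group, also differed between the genotypes, and the sub-groups were cut on the same counts.

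The share of smooth muscle cells addressed whether the vessel wall contributed differently to the 2 genotypes. It was 0.226 and 0.411% of barcodes in control hearts, against 0.120, 0.130 and 0.143% in disease hearts. All 3 disease libraries were below both controls, with means of 0.319% ± 0.131 (SD, n = 2) and 0.131% ± 0.0114 (SD, n = 3). The difference was -0.188 percentage points (two-sided exact permutation test over 10 splits, p = 0.1, the smallest this design can give, and 0.2 after Benjamini-Hochberg adjustment over 2 shares), so it could not pass. The separation was absent when the limits on other cells' genes were dropped. Barcodes past the Myh11 and the Acta2 and Tagln minima alone made up 0.733 and 0.930% in control hearts, against 0.893, 0.422 and 0.832% in disease hearts (difference -0.116 points, exact permutation p = 0.8). Of these barcodes 21 of 68 and 23 of 52 met the full rule in the controls, and 7 of 52, 13 of 42 and 11 of 64 in the disease libraries. Endothelial marker levels in the smooth muscle cells, given above, were highest in disease replicates 4 and 5, while disease replicate 3, which had the lowest share, was at 2019 CPM beside 2009 CPM in control replicate 2. Whether RNA from other cells bears on the share was not tested.

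**Figure D3:**
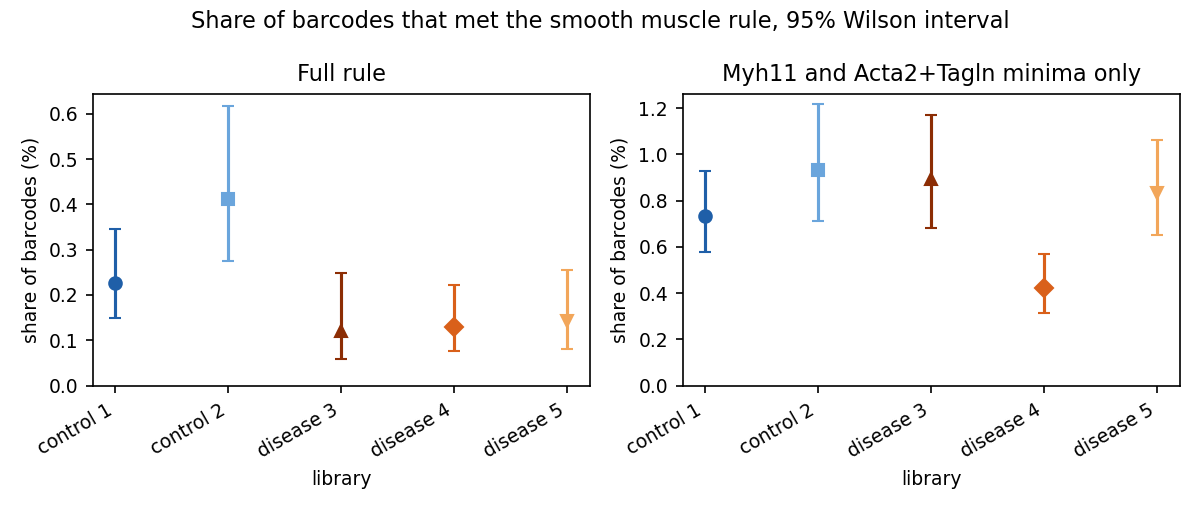
Share of barcodes that met the full rule (left) and the contractile minima alone (right) in each library, with 95% Wilson intervals that cover counting error only. On the left the disease libraries sit at 0.120 to 0.143%, below both controls, and on the right the groups overlap.

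As a share of mural cells, taken as smooth muscle cells plus cells of the pericyte rule, they were 24.4 and 50.0% in control hearts, against 36.8, 39.4 and 20.8% in disease hearts. The groups overlapped, and the difference of -4.88 points (two-sided exact permutation test, p = 0.8) changed sign without control replicate 2 (7.91 points) and without disease replicate 5 (0.909 points). The bounds on single libraries were wide, for example 19.1 to 59.0% in disease replicate 3 (95% Wilson interval, 7 of 19 cells).

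Between the genotypes, 20 genes were lower in disease smooth muscle cells and 0 higher, of 979 tested (2.04%, edgeR quasi-likelihood test, adjusted p under 0.05). An unadjusted p under 0.05 was reached by 134 genes, and 30.7% had libraries that did not overlap, 12.9% higher and 17.9% lower in disease. A gene could pass the filter on low counts through 1 group alone. Genes near 0 in disease, such as Ramp1 and Ndufab1, were tested only because they were high in controls. The sums of UMIs were also smaller in disease, at 37635 to 59399 against 140779 and 108018 in controls. The 20 hold mitochondrial genes (Ndufab1, Cox5a, Atp5b, Chchd10), genes of translation (Rps2, Eif1, Eif3f, Edf1) and of the cytoskeleton (Pfn1), beside Ppp1r14a, Ramp1, Igfbp7, Fth1, Tpt1, Itm2b, Bsg, Pdia3, Perp, Hmgn1 and Fkbp1a. This sorting is by known function only, and the share of such genes among the 979 was not counted. Only Ppp1r14a, Ramp1 and Igfbp7 belong to the lists. The count moved with single libraries. It was 12 without disease replicate 3, 3 without disease replicate 5, and 0 without any 1 of control replicate 1, control replicate 2 or disease replicate 4. It was 1 with a mitochondrial limit of 5% and 4 with 7 cells per library. Every one of the 20 that could be tested under these settings still had a negative log2 difference, of -1.69 or below.

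Ppp1r14a (CPI-17), an inhibitor of myosin phosphatase that keeps smooth muscle contracted, was at 611 and 499.9 CPM in control hearts, against 53.1, 0 and 67.3 CPM in disease hearts, from 86 and 54 UMIs in control hearts, against 2, 0 and 4 in disease. Every disease library was below both controls. It fell by 3.74 on the log2 scale (SE 0.60, adjusted p = 0.0379). Ramp1, which with its receptor binds the vasodilator peptide CGRP, was at 249 and 241 CPM in controls and 0, 0 and 16.8 CPM in disease, where the disease libraries together had 1 UMI. It fell by 4.89 (SE 0.88, adjusted p = 0.0397). Ppp1r12a, the subunit that targets myosin phosphatase to myosin, was at 938 and 898 CPM in controls and 425, 412 and 438 CPM in disease without overlap, and did not pass (log2 difference -1.19, SE 0.27, adjusted p = 0.0791).

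Igfbp7, a secreted binding protein of the vessel wall, was at 3090 and 3472 CPM in control hearts, against 691, 145 and 303 CPM in disease hearts. It fell by 3.21 (SE 0.51, adjusted p = 0.0379). Pfn1 (profilin), which delivers actin to growing filaments, was at 1371 and 1092 CPM in controls and 106, 218 and 67.3 CPM in disease and fell by 3.35 (SE 0.45, adjusted p = 0.0289). Fth1, the ferritin heavy chain that stores iron, was at 6017 and 3712 CPM in controls and 1063, 315 and 639.7 CPM in disease and fell by 2.94 (SE 0.46, adjusted p = 0.0379). Ndufab1, the acyl carrier protein of mitochondria, was at 405 and 343 CPM in controls and 26.6, 0 and 0 CPM in disease, 1 UMI in all 3 disease libraries together. Rps2, Fth1, Tpt1 and Eif1 have near-identical copies in the genome, among which counting can divide reads, so their levels are uncertain.

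The same 20 genes were read in other cells of the same libraries. Within fibroblasts all 20 could be tested, 18 passed and their log2 differences ran from -4.12 to -1.68, in a comparison where 12.5% of 13264 genes were lower and 0.369% higher. Within the cells of the pericyte rule 16 could be tested, all 16 passed, and the differences ran from -5.03 to -2.25 (6.94% of 1917 genes lower, 0 higher). In smooth muscle cells they ran from -5.47 to -2.22. For Pfn1 the log2 difference was -3.35 in smooth muscle cells, -4.08 in the pericyte rule and -3.90 in fibroblasts, and for Ppp1r14a -3.74, -5.03 and -4.12. The libraries are shared by these comparisons, so they are not independent. None of the 20 was called in the test of a different genotype effect between classes. That test called 0 of 1898 genes against the pericyte rule and 0.0248% of 12085 against fibroblasts. For the 20 its terms ran from -4.90 to 2.12 and from -3.31 to 0.54 in that order, so equal differences were not shown.

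**Figure D4:**
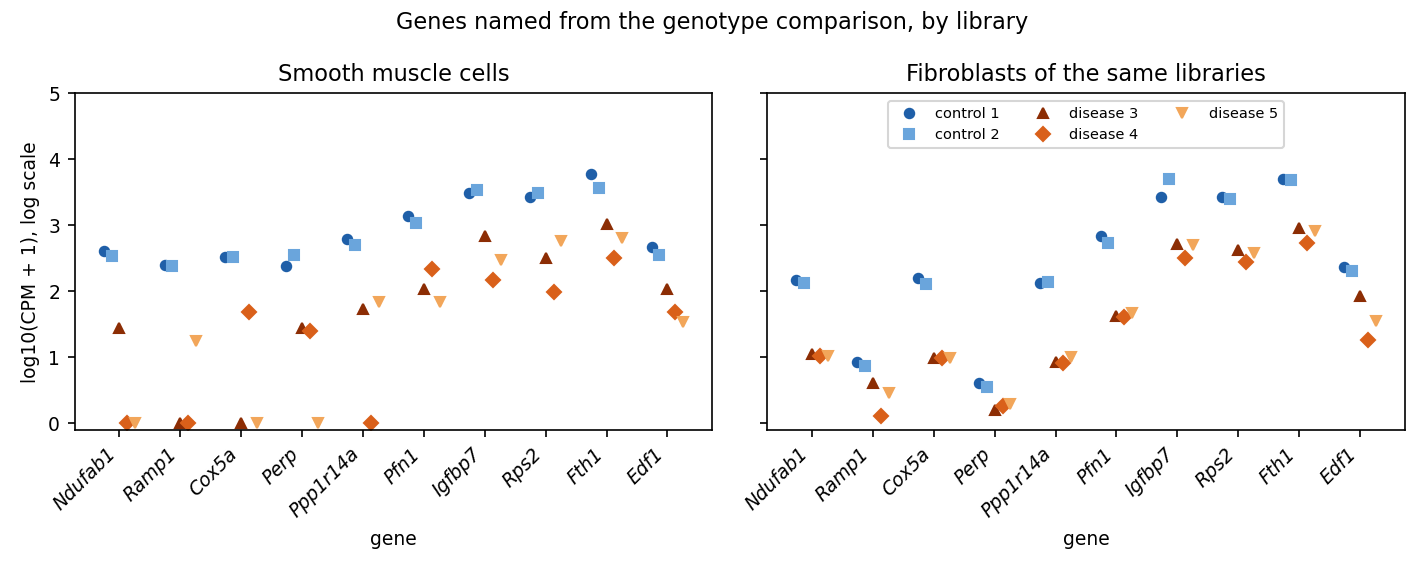
Level of 10 genes named from the genotype comparison as log10(CPM + 1) in smooth muscle cells (left) and fibroblasts (right), with 1 point per library, blue for controls and brown to orange for disease. For each gene the 3 disease libraries lie below both controls in smooth muscle cells, which was a condition for naming it. The same order holds for these genes in fibroblasts.

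Base composition moved with this result. The first 300 bases of the longest transcript of each of the 20 genes had a median of 67.7% G and C, beside 59.0% for genes not called. Across the 979 genes the log2 difference ran against it with a Spearman rho of -0.309, a description over genes, which are not independent replicates. Within fibroblasts the medians were 67.7 and 59.0% and rho was -0.396. The 5-prime chemistry reads this end of the transcript. The part of base composition in the result was not tested, and sequencing batches are not given in the sources used here, so batch and group cannot be told apart.

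The contractile apparatus itself gave 1 of 25 genes called between genotypes, Ppp1r14a, beside 2.04% of all genes tested, with a median log2 difference of -0.46 beside -0.03 and 3 of 25 with a positive sign beside 48.4%. Myl9 was at -0.48 (SE 0.41, adjusted p = 0.659) and Des at -1.53 (SE 0.46, adjusted p = 0.167). Disease replicates 3 and 4 had contractile sums within the range of the controls or just below it, and disease replicate 5 had the lowest, with the highest fibroblast markers. In the 68 cells with at most 4 fibroblast UMIs the contractile sum was 42129 and 34411 CPM in control hearts, against 42358, 38551 and 24336 CPM in disease hearts. Disease replicate 5 was lowest there for 17 of the 26 genes, Myl9 among them, and not for the other 9, such as Tpm1, Csrp1 and Pdlim3.

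Genes induced by interferon-gamma, a cytokine of activated T cells, overlapped between the groups. Their summed level was 5264 and 3138 CPM in control hearts, against 3933, 9305 and 7273 CPM in disease hearts, with disease replicates 4 and 5 above both controls and replicate 3 between them. In cells with at most 4 fibroblast UMIs the sum was 4455 and 3138 CPM in controls and 2779, 9305 and 4834 CPM in disease, where replicate 3 was below both controls and replicate 5 little above them. None of 8 tested was called, beside 2.04% of all genes, and 6 had a positive sign, beside 48.4%. Icam1, an adhesion molecule for leukocytes, was at 14.2 and 18.5 CPM in control hearts, against 79.7, 218 and 269 CPM in disease hearts without overlap, from 32 UMIs in 10 cells (log2 difference 3.38, SE 0.86, adjusted p = 0.107). In cells with at most 4 fibroblast UMIs the groups overlapped for Icam1, at 0 and 18.5 CPM in controls and 0, 218 and 166 CPM in disease. B2m, the light chain of class I molecules, was at 923 and 324 CPM in controls and 717, 1672 and 1364 CPM in disease, and H2-D1, one of a family of near-identical genes, at 859.5 and 528 CPM in controls and 53.1, 291 and 488 CPM in disease, with opposite signs. Limited to cells with at most 4 fibroblast UMIs, B2m was at 738 and 324 CPM in controls and 357, 1672 and 525 CPM in disease, so that replicates 3 and 5 lay between the controls. Cd74 reached 1454 CPM in disease replicate 4 and 27.8 to 192 CPM in the other libraries. Leukocyte markers were also highest there, at 654 CPM, and their part in the Cd74 level was not tested. Cxcl9 had 1 UMI in the 75 cells and Cxcl10 had 5.

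Immediate early genes gave 0 of 19 called and 13 with a positive sign, beside the same 2.04% and 48.4%. Atf3, a stress-induced transcription factor, was at 1811 and 2731 CPM in control hearts, against 425, 921 and 488 CPM in disease hearts and just missed the threshold (log2 difference -1.98, SE 0.39, adjusted p = 0.0512). Fos was at 6656 and 8110 CPM in controls and 6616, 10637 and 9226 CPM in disease and overlapped. Cell cycle genes were sparse, with 7 of 18 at 0 in every library, and Mki67 had no UMI.

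Whether the genotype difference of smooth muscle cells differed from that of other classes was tested with a class by genotype term. Against the pericyte rule 0 of 1898 genes were called by edgeR (0%) and 0 by DESeq2, with 59 at an unadjusted p under 0.05. Against fibroblasts 3 of 12085 (0.0248%, of which 0.0165% higher and 0.00827% lower) were called by edgeR, and 0 by DESeq2. They were Il6, Ccl2 and Gsn. The count was 12, 27 and 6 without disease replicates 3, 4 and 5 in turn. Il6, an inflammatory cytokine, had 26 UMIs in 2 cells of disease replicate 5, 25 of them in 1 cell that also had 129 UMIs over Dcn, Col1a1 and Pdgfra, and none in the other libraries. Ccl2, a monocyte chemokine, had 21 and 2 UMIs in control hearts, against 0 in disease, and 13 of the 23 were in 1 cell with 201 such fibroblast UMIs. Gsn (gelsolin), an actin-severing protein abundant in fibroblasts, was at 2088 and 926 CPM in control hearts, against 4623, 678 and 8670 CPM in disease hearts. It is itself one of the 16 fibroblast markers and made up 31.6 to 64.5% of their sum by library. Its term of 1.98 (SE 0.43, adjusted p = 0.0165) became 0.52 (adjusted p = 1) in cells with at most 4 fibroblast UMIs.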

How the data were processed

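Five-prime single-cell libraries of pooled mouse hearts, 2 control and 3 disease, were analysed. The authors deposited a matrix of raw UMI counts per gene and barcode for each library, and the file headers name Cell Ranger with software version 3.1.0. The submitters' processing notes also list Seurat 3 and the builds mm10 and GRCh38, with no role given. No count had been normalised.

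Members were picked in each matrix by the stated rule. UMIs were summed per library over smooth muscle cells, cells of the pericyte rule and fibroblasts, and the quasi-likelihood test of edgeR 4.0.16 (R 4.3.3) was run on these sums (filterByExpr, TMM normalisation, Benjamini-Hochberg adjustment over all genes tested, 9 rule genes left out, 12 in the fibroblast comparison). The standard error is the log2 difference divided by the square root of F. Classes were compared with library as a block, genotypes over libraries, and a class by genotype term tested their difference. Shares were compared with exact permutation tests. Sub-groups came from Leiden clustering in scanpy 1.11.5 (15 principal components, 15 neighbours, resolution 0.5). On simulated counts the genotype fit recovered 92.1% of genes changed 4-fold and 99.5% changed 16-fold, and the pericyte fit 99.3% and 100%. False calls were 5.2 and 1.5% of calls in the former and 2.6 and 6.6% in the latter. The simulated libraries shared the same profile, with a fixed spread and no differences between libraries other than depth. Recovery in the real libraries, which can differ more, is therefore not measured by these shares.

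Named genes were those of 26 lists, the 10 largest rises and falls between genotypes, the 12 largest between classes and the 5 largest of the class by genotype term. Genes named between genotypes or classes averaged at least 6 log2 CPM and had no overlap of groups or 1 direction in all libraries. The members and lists were chosen with earlier results of these data known. A minimum of 10 cells per library was set, and disease replicate 3, with 7, was retained against it. Alternatives were RLE scaling, DESeq2 1.42.0, other filters and thresholds, thinned or equal cells, and each library left out. Intervals and limits cover counting error only. Barcodes outside the named classes were not used in tests between classes.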

Additional observations from a re-analysis of the deposited data

Results flagged for a closer look

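The genotype difference of 3 genes in smooth muscle cells differed from that in fibroblasts of the same libraries, by the class by genotype term of the edgeR quasi-likelihood test over 12085 genes. For Il6 the term was 12.29 on the log2 scale (SE 2.4, adjusted p = 0.0039), from 26 UMIs in 2 cells of disease replicate 5, with none in the other 4 libraries. The cell that held 25 of them also had 129 UMIs over the fibroblast genes Dcn, Col1a1 and Pdgfra, and 1 Il6 UMI was left in cells with at most 4 such UMIs, where the term was 7.79 (adjusted p = 1). Against a floor of 3 counts over the control group the level was at least 15.6-fold higher in disease. For Ccl2 the term was -12.60 (SE 2.5, adjusted p = 0.0039), from 21 and 2 UMIs in the controls and 0 in disease, in 6 cells. Its level was at least 4.26-fold lower against the same kind of floor in the disease group, a bound that needs control replicate 1, since control replicate 2 alone was at 18.5 CPM beside a floor of 21.7 CPM. Of the 23 UMIs, 13 were in 1 cell with 201 fibroblast UMIs, and in cells with at most 4 the 10 that were left gave a level at least 1.63-fold lower and a term of -11.69 (adjusted p = 0.256). For Gsn the term was 1.98 (SE 0.43, adjusted p = 0.0165), with disease replicates 3 and 5 above both controls and replicate 4 below them, and it became 0.52 (adjusted p = 1) in cells with at most 4 fibroblast UMIs. DESeq2 called none of the 3. The Gsn term did not pass without control replicate 1 (2.75, adjusted p = 0.0599), control replicate 2 (1.23, adjusted p = 1) or disease replicate 5 (1.14, adjusted p = 0.72). The Il6 term did not pass without control replicate 1 (11.76, adjusted p = 0.459), control replicate 2 (12.16, adjusted p = 0.445) or disease replicate 5 (-0.41, adjusted p = 1), and the Ccl2 term did not pass without control replicate 1 (-10.15, adjusted p = 1) or disease replicate 4 (-11.91, adjusted p = 0.096).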

How the results depend on the processing

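The difference in the share of barcodes kept its sign under every alternative run. Its size ran from -0.280 points without control replicate 1 to -0.0952 points without control replicate 2, and was -0.0964 points with the 5% mitochondrial limit. The difference in the share of mural cells changed sign when cells were thinned to 1500 UMIs (3.50 points), under a looser rule (1.66) and with the contractile minima alone (9.56), and ran from -17.7 to 7.91 points with 1 library left out (7.91 without control replicate 2, 0.909 without disease replicate 5). Genes called between genotypes numbered 148 without a filter on low counts, 12 under a stricter rule, 1 with a mitochondrial limit of 5%, 4 with equal cells per library, 87 with wider limits on other cells' genes, and 0 to 12 with a library left out. Against the pericyte rule 428 genes were called, 139 after thinning, 938 without that filter, 25 with the 5% limit, 285 with equal cells, 698 with wider limits, 214 with that class limited to 4 fibroblast UMIs, 210 with both classes limited, and 261 to 476 with a library left out (261 without control replicate 2). Against fibroblasts 2232 were called, and 1029 with the 5% limit. The class by genotype term called 1 gene against the pericyte rule without that filter. Against fibroblasts it called 13 with RLE scaling, 0 with DESeq2, 1 under the stricter rule, 6 with the 5% limit, 0 with equal cells, 6 with wider limits, and 3 to 27 with a library left out.

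Genes called in the reported fits changed sign as follows. With only the pericyte rule limited, the log2 differences were 0.20 for Col3a1, 1.75 for Dcn (itself a gene of that limit), 2.26 for Gsn, -0.19 for Gucy1a1, -0.69 for Gucy1b1, -0.20 for Hes1, -0.064 for Id1, -0.057 for Junb, -0.34 for Notch3, 0.70 for S100a6 and 0.55 for Vim. With both classes limited they were 0.62 for Gsn, -0.23 for Gucy1a1, -0.56 for Gucy1b1, -0.11 for Hes1, -0.22 for Junb, -0.33 for Notch3 and 0.18 for Vim. Among listed genes not called against the pericyte rule, Rgs5, Rgs4, S1pr3, Gja4, Esam, Cd36 and Hspa1a went from a positive sign to called as lower with both classes limited. Against fibroblasts Col18a1 was at -0.026 with equal cells and ran from -0.75 (without control replicate 1) to 2.46 with a library left out, and with the 5% limit Notch1 was at -0.36 and Tln1 at -0.23. The Il6 term was -0.53 with the 5% limit, -0.43 with equal cells and -0.41 without disease replicate 5. Of the named genes, 42 of 114 against the pericyte rule and 157 of 274 against fibroblasts were called under every alternative that tested them, and 0 of 20 between genotypes. Other causes of these changes were not tested. Wider limits and those on fibroblast UMIs were chosen after seeing the data. No paired analysis was possible because the control and disease libraries share no replicate number. Depth was limited by 7 to 23 cells per library.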
